A study of Felis catus with 77 samples.

Results

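Tumor (T) and peritumoral connective tissue (CT) of the same cat were compared within case, gene by gene, in feline fibrosarcoma (FSA). Both tissues had been sequenced in 11 cases (6, 8, 13, 14, 17, 21, 22, 29, 30, 31 and 32), which gave 22 of the 77 RNAseq libraries of the series, 11 of T and 11 of CT. All T samples were primary FSA and all CT samples unaffected connective tissue from the vicinity of the tumor. The cats were surgical patients, and no treatment or time course separates the groups. Both tissues were cut from archival formalin-fixed, paraffin-embedded blocks by laser-capture microdissection (LCM), in which a pathologist marks an area and a laser lifts it from the section. Vaccination is part of the clinical history, so tumors that arise at injection sites may be among them. The rest of the series holds T libraries of 19 further cats, skeletal muscle (SM) and adipose tissue (AT).

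FSA is a malignant tumor of the soft tissue whose cells resemble fibroblasts. Connective tissue is built by normal fibroblasts, which lay down collagen and other extracellular matrix, and it also holds vessels, nerves, resident immune cells and, at its borders, fat. T vs CT is therefore the comparison between the tumor and the normal tissue made by the cells that its own cells resemble. A captured area is a mixture of cells, and in bulk RNA fewer cells of a type and less RNA per cell cannot be told apart.

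Genes are given by their Ensembl identifiers. The files do not pair the 19587 identifiers with symbols, and 0 of them matched the reference table of 39307 genes, so marker genes, pathways and gene functions are not reported and 4 genes chosen by rule are named. In their place, 3 lists were made from the T, AT and SM libraries of the 19 cats without CT, and the tissue labels were checked against these lists.

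The total counts ranged from 1875842 to 14308253 in T, with a median of 10502208, and from 847003 to 6329045 in CT, with a median of 3904682. In 11 of 11 cases T was the deeper library, by 1.39 to 6.62 times (median 2.32). The CT libraries of cases 13 (847003 counts), 21 (863878) and 17 (1351243) were the shallowest. No pair of libraries was identical. Each of the 22 libraries correlated better across genes with the mean of its own tissue than with the mean of the other tissue, with the smallest margin in T of case 14 (r = 0.805 with T and 0.799 with CT, across genes, which are not independent replicates). Cases 13, 14 and 17 stood apart in another measure, since more genes were detected in their libraries. At an equal depth of 847003 counts, 15561 to 18158 genes were detected in their T and 17981 to 18332 in their CT libraries, against 12591 to 13237 and 9691 to 13497 in the other cases. T and CT did not differ in this number beyond the spread over cases (T minus CT 47.9 ± 1380 genes, SD, n = 11 pairs, higher in T in 6 cases, two-sided exact permutation test, p = 0.887). The mean rested on single cases. It was 326 without case 14 (p = 0.43, same test) and 519 without cases 13, 14 and 17 (p = 0.22, same test). The results below are therefore also given without these cases where the value changed.

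The within-case comparison called 812 genes higher and 914 lower in T among 12857 tested (edgeR quasi-likelihood test with case as a block, Benjamini-Hochberg adjusted p under 0.05 and log2(FC) beyond 1). These were 6.32% and 7.11% of the tested genes, and 18.9% (2434 genes) had an adjusted p under 0.05 at any size. The lower genes had moved further. Their median log2(FC) was -2.34 (10th to 90th percentile -4.69 to -1.25, median standard error 0.554), while that of the higher genes was 1.53 (10th to 90th percentile 1.07 to 3.38, median standard error 0.370).

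The balance of higher to lower genes depended on the processing. With TMM scaling, which was used throughout, the median log2(FC) of all tested genes was 0.19, so each log2(FC) is to be read against that value. Scaled by total counts alone, this median was -0.03 and the split was 415 genes higher and 1165 lower. Only the scaling differed between these fits. With DESeq2, which changes the test as well as the scaling, the split was 1125 and 1628, and with both libraries of a case thinned to the same depth 547 and 1068. Higher genes were thus 47.0% of the calls with TMM, 26.3% with total counts, 40.9% with DESeq2 and 33.9% after thinning. With TMM kept and no filter on low counts, 611 genes were higher and 1094 lower (35.8% higher), with 10 counts in 50% of a tissue's libraries 574 and 1115, and without the case block 848 and 652 (56.5% higher).

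The number of higher genes also rested on single cases. It fell to 463 without case 13 and to 514 without case 30, and to 251 without the cases of the 3 shallowest CT libraries (13, 17 and 21), a set chosen after the data were examined. The lower genes numbered 706 to 1068 with any 1 case left out. Of the genes called on all 11 cases, 359 of 812 higher and 590 of 914 lower genes were called in each of the 11 fits that left out 1 case.

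Direction over the cases was read from the within-case difference in log2 CPM (CPM, the counts relative to the TMM-scaled library size, with a prior count of 2). T was above CT in all 11 cases for 442 genes (3.44%) and below CT in all 11 for 349 (2.71%). These genes differed in size between the directions. Genes above CT in all cases had a median log2(FC) of 1.13, close to the call limit, whereas for genes above CT in none the median was -3.06. Among the consistently higher genes, 177 were not called, of which 158 had a log2(FC) of at most 1 and 35 an adjusted p of at least 0.05 (edgeR). Among the consistently lower genes only 29 were not called. Thinning to equal depth left 251 genes above CT in all cases, and scaling by total counts left 144.

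**Figure D1:**
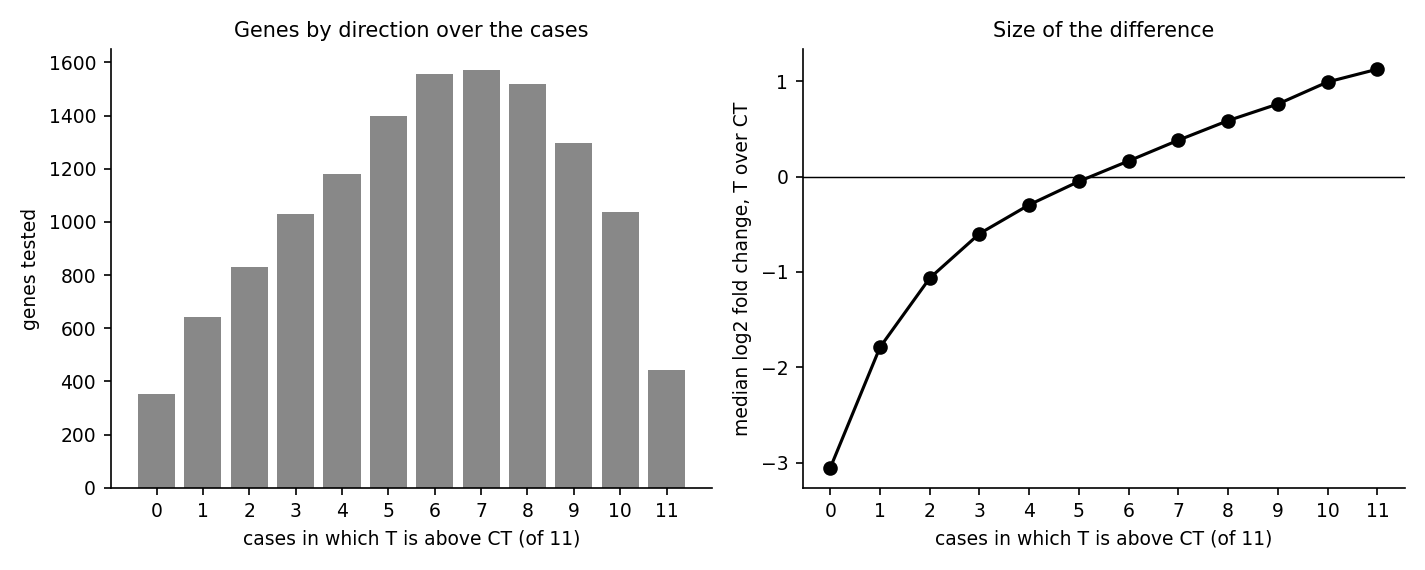
Tested genes sorted by the number of cases, of 11, in which T lay above CT. Bars on the left count the genes, from 352 at 0 cases to 442 at 11, and points on the right give the median log2(FC) of T over CT, which runs from -3.06 to 1.13, so that the consistently lower genes differ more than the consistently higher ones.

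Of the 812 called higher genes, 265 (32.6%) had the same direction in 11 cases, 372 in 10 and 154 in 9. The 914 lower genes were distributed in the same manner, with 320 (35.0%) in 11 cases, 399 in 10 and 177 in 9. No called gene had fewer than 8 cases on its side. Since the calls and the directions come from the same libraries, these counts describe the called genes and are no test of them.

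Size and consistency were related in opposite ways in the 2 directions. Among higher genes, the share with the same direction in all cases was smaller at larger sizes, with 38.8% of the 516 genes with a log2(FC) between 1 and 2, 46 of 164 genes between 2 and 3, 12 of 86 between 3 and 4 and 7 of 46 above 4. Among lower genes it increased, from 67 of 368 genes (18.2%) to 75 of 220, 80 of 172 and 98 of 154 (63.6%) in the same steps. Of the genes with the largest differences, beyond 4 log2 units, 7 higher and 98 lower genes were thus counted with their direction in every case. The counts of lower genes include genes that were level in a case, since differences below 0 by rounding alone were counted as T below CT. Expression level changed over these steps too. From the first to the third step, the median of the mean log2 CPM fell from 5.78 to 4.19 for higher genes. For lower genes it fell from 5.66 to 4.49. Above 4 log2 units it was lower still for higher genes, but 4.76 for lower genes. The part of expression level in the opposite trends was not tested.

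A difference of more than 2-fold in every case was seen for 7 genes higher and 83 lower in T. Without case 14 these were 43 and 118, and without cases 13, 14 and 17 they were 123 and 210, over 8 cases. The spread over cases was wide even for called genes. From the case with the lowest to the case with the highest difference, the median range was 4.16 log2 units for higher and 5.42 for lower genes. The mean difference exceeded 2 times its SD over the cases for 61 of the higher and 100 of the lower genes.

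Exceptions were concentrated in few cases. Among the 372 higher genes with 10 of 11 cases on their side, case 14 was the exception for 153 (41.1%), case 22 for 72 (19.4%) and case 8 for 45 (12.1%). Among the 399 lower genes, case 14 was the exception for 132 (33.1%), case 8 for 61 (15.3%) and case 17 for 51 (12.8%). Each of cases 13, 31 and 32 was the exception for at most 9 higher and at most 13 lower genes.

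No overlap at all between the tissues, across cats as well as within them, was rarer. In 23 genes (0.179%) every T library was above every CT library in CPM, and 20 of these were called. In 52 genes (0.404%) every T library was below every CT library, and all 52 were called.

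Consistency also changed with expression level. The tested genes were divided into 3 groups of equal size by mean log2 CPM, and the median SD of the within-case difference was 1.87 in the lowest group (1.09 to 4.10), 1.11 in the middle and 0.759 in the highest (5.66 to 15.4). Calls were made in 3.92%, 6.81% and 8.21% of the genes for higher, and in 5.60%, 7.70% and 8.03% for lower, from the lowest to the highest group. The spread over cases was thus wider at low levels, and 1773 genes had a log2(FC) beyond 1 in either direction with an adjusted p of at least 0.05 (edgeR).

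Genes that were absent from one tissue and present in the other were nearly not found. At equal depth within each case, 0 genes had no count in all CT libraries and at least 10 counts in 6 or more T libraries, and 1 gene had the reverse pattern. The rule asks for no count in libraries that include those of cases 13, 14 and 17. At 847003 counts, 17981 to 18332 of the 19587 identifiers were detected in their CT libraries, and 15561 to 18158 in their T libraries. Few genes could therefore meet the rule, and it cannot decide whether T and CT differ in which genes are present.

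The 4 named genes show what these differences look like in single cases. They had at least 10 counts in all 22 libraries, the same direction in all 11 cases and the largest fold changes of the 151 higher and 112 lower genes that met these conditions. As they were chosen on this comparison, their fold changes are a description.

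ENSFCAG00000030585 was higher in T. It ranged from 326 to 3400 CPM in T (median 621) and from 31.7 to 130 CPM in CT (median 51.4). All T libraries lay above all CT libraries, and the T library of case 14, with 3400 CPM, was the highest. The fold change was 12.8 (log2(FC) 3.67, standard error 0.35, edgeR adjusted p = 8.5e-05), with within-case differences from 1.86 in case 17 to 5.85 in case 14.

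ENSFCAG00000009217 was among the more abundant genes of the tumors. It ranged from 1920 to 44033 CPM in T (median 21049) and from 471 to 4843 CPM in CT (median 1175). The groups overlapped, since 9 of 11 T libraries lay above every CT library, and T of case 14 (1920 CPM) and T of case 17 (4639 CPM) lay within the CT range. The fold change was 10.4 (log2(FC) 3.38, standard error 0.47, edgeR adjusted p = 0.00081). The within-case difference was 0.30 in case 14 and 2.23 to 5.47 in the other cases, so that 1 case was close to no difference.

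ENSFCAG00000030571 was lower in T. It ranged from 2.19 to 30.8 CPM in T (median 7.77) and from 101 to 793 CPM in CT (median 346), with no overlap. The gene was 42.9-fold lower (log2(FC) -5.42, standard error 0.56, edgeR adjusted p = 0.00013). The within-case differences were smallest in cases 14 (-2.33) and 22 (-2.46) and largest in case 8 (-8.29).

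ENSFCAG00000023366 varied most among the 4. It ranged from 3.57 to 1936 CPM in T (median 80.0) and from 558 to 5964 CPM in CT (median 3339). All T libraries but 1 lay below every CT library. The exception was case 8, where the gene remained at 1936 CPM in T against 2927 CPM in CT (difference -0.60), while in case 30 it was at 3.57 CPM in T against 5964 in CT (difference -10.57). The gene was 31.9-fold lower over all cases (log2(FC) -5.00, standard error 0.83, edgeR adjusted p = 0.0019). Case 14 had no weak difference here (-6.71), so the case that was an exception for many genes was no exception for this one.

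**Figure D2:**
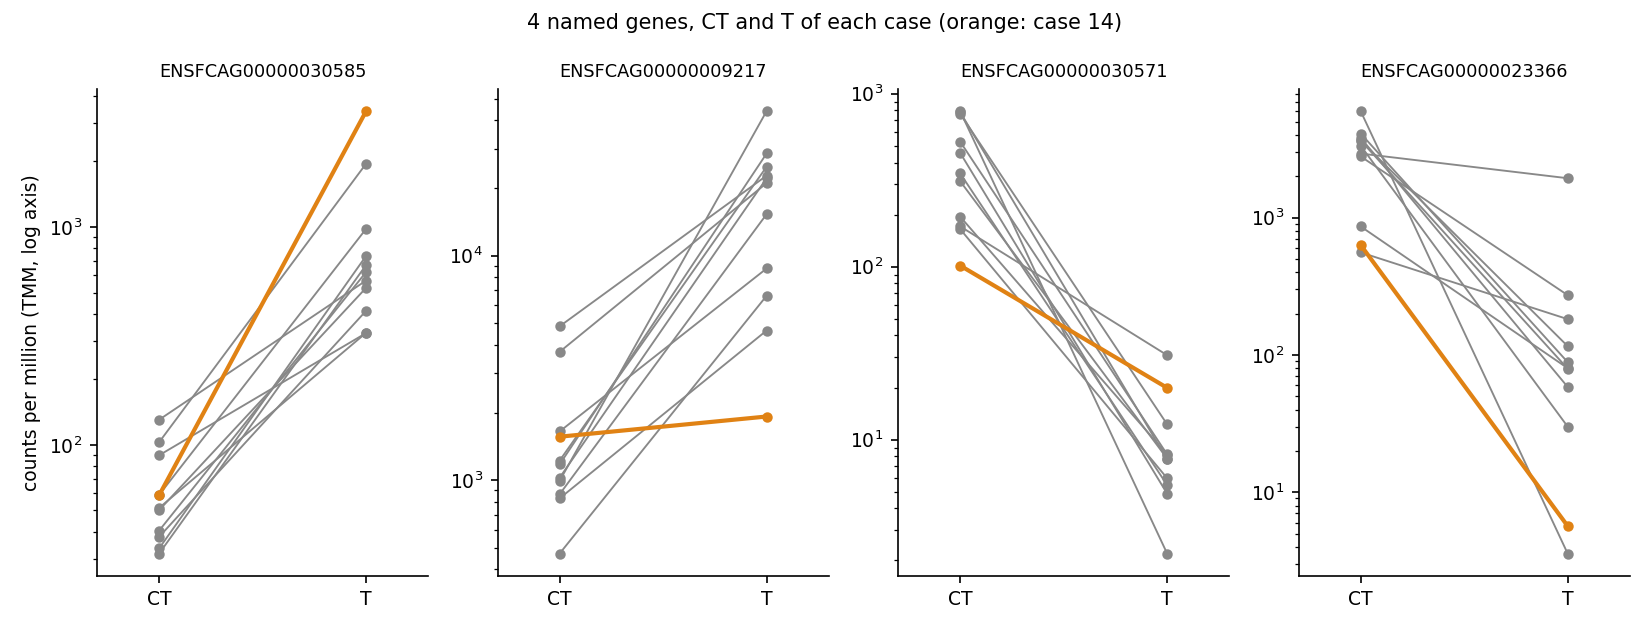
CPM of the 4 named genes in CT and T on a log axis, with a line for each of the 11 cases and case 14 in orange. All lines rise in the first 2 panels and fall in the last 2, but by very different amounts, as in ENSFCAG00000023366 with differences from -0.60 to -10.57 log2 units.

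To read the called genes in a cat that took no part in calling them, each case was left out in turn, the fit was repeated on the other 10, and the direction was taken from the case left out. The share of higher genes with T above CT in the left-out case had a median of 92.4%, and the share of lower genes with T below CT a median of 86.2%. Over all tested genes, T was above CT in 51.1% to 63.2%. In 8 of the 11 cases over 80% of both sets kept their direction, with the highest shares in case 29 for higher (95.3%) and case 32 for lower genes (94.2%).

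The exceptions were cases 8, 14 and 22. In case 14, 52.8% of the higher genes were above CT, which is below the 56.0% of all genes above CT in that case. Of the lower genes, 65.8% were below CT there, against 44.0% of all genes. Case 22 kept the direction of 73.1% of the higher and 83.3% of the lower genes, and case 8 of 77.8% and 79.8%.

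The size of the difference in the left-out case was read in the same way. For higher genes, the median difference in the left-out case was 0.09 in case 14 and 0.55 in case 22, against 1.01 to 2.62 in the other cases, and it was highest in case 21, which holds a shallow CT library. For lower genes it ranged from -0.84 in case 14 and -0.88 in case 17 to -2.79 in case 32. The other 10 cases in each fit had medians of 1.41 to 1.98 and of -2.36 to -2.05 for the same genes.

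**Figure D3:**
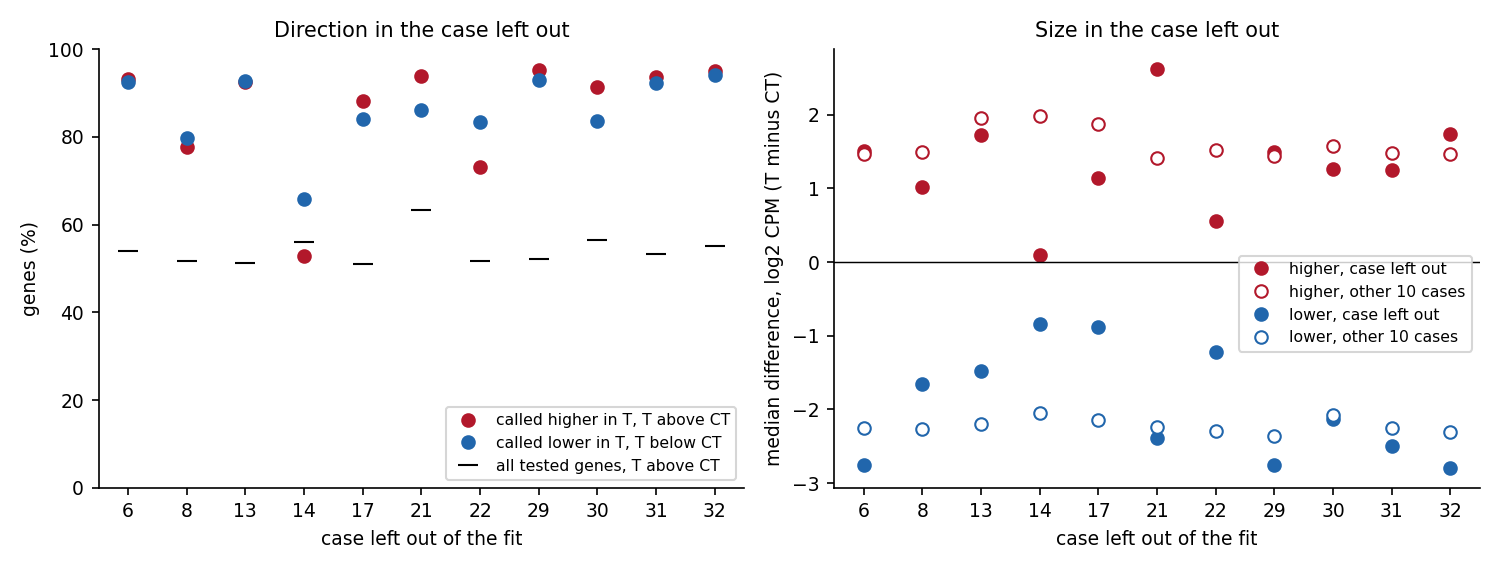
Genes called on 10 cases, read in the case left out. Left, the percentage of higher genes with T above CT (red) and of lower genes with T below CT (blue), with bars for all tested genes with T above CT; right, the median difference in log2 CPM in the case left out (filled) and in the other 10 (open). Case 14 lies lowest, with 52.8% and 65.8%, and its median for higher genes is 0.09.

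The cases with more genes detected were also read together. On the other 8 cases, 666 genes were called higher and 920 lower, of which 533 and 734 were also called on all 11. In case 13, 86.7% of the higher and 90.2% of the lower genes of the 8 cases had the same direction, and in case 17 these were 81.8% and 82.0%. Case 14 differed from both, with 47.9% and 63.9%. The median difference over the higher genes was 1.51 in case 13, 0.94 in case 17 and -0.06 in case 14, against 2.47 for the mean of the other 8 cases, and over the lower genes -1.34, -0.87 and -0.75, against -2.32. The genes were called on these 8 cases, which raises the values of the 8, so the sizes are not compared with them. When case 13 was left out singly, 463 genes were called higher, and their median was 1.72 in case 13 and 1.95 in the other 10. The other 10 cases were again those of the calls, and each left-out case has its own set of genes.

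Over all tested genes, the within-case differences of 2 cases correlated across genes with r between 0.039 and 0.563 over the 55 pairs of cases (median 0.327; genes are not independent replicates). The median r of a case with the others was lowest in case 14, with values from 0.039 to 0.321, and highest in case 29 (median 0.444). The magnitude differed as well, since the SD of the difference across genes was 1.09 in case 17 and 2.84 in case 21.

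Some genes differed strongly in opposite directions. In 157 genes the difference was above 2 log2 units in at least 3 cases and below -2 in at least 3 others, and 0 of these were called. They were expressed at lower levels than the tested genes (median of the mean log2 CPM 3.42, against 4.87). Case 21 had the most of them above 2 (89 genes), and case 14 the most below -2 (98 genes). Of the 157 genes, 12 (7.64%) were on the muscle-high list described next, which held 1.73% of all tested genes, and 0 were on the adipose-high or tumor-high list.

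To see which tissues the captured areas resembled, 3 lists were read in the 22 libraries. A gene was called tumor-high, adipose-high or muscle-high when its mean log2 CPM in that tissue of the 19 cats without CT was at least 5, and at least 3 above its mean in each of the other tissues. None of these cats is among the 11 cases. The lists were therefore chosen on other animals, although with earlier results of this series known.

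The tumor-high list (59 genes, all tested) had a mean log2 CPM of 6.54 in T and 3.42 in CT. T was above CT by 3.12 ± 1.85 log2 units (SD, n = 11 pairs), in 10 of 11 cases (two-sided exact permutation test, p = 0.00195, adjusted over the 3 lists 0.0029). Of its 59 genes 53 were called higher and 0 lower, against 6.32% and 7.11% of all tested genes. The genes of the list took 0.452% to 5.54% of the counts in T and 0.122% to 0.639% in CT. In case 14 the list was at 4.56 in T and 5.10 in CT, a difference of -0.54, and the list took 0.452% of the counts in T and 0.639% in CT. The labels and this list thus disagree in case 14, where the library labelled T had the lowest value of the 11 T libraries and the library labelled CT the highest of the 11 CT libraries. In the other cases the difference ranged from 1.34 in case 22 to 5.99 in case 21.

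The adipose-high list (79 genes, 77 tested) was lower in T in all 11 cases. Its mean log2 CPM was 2.19 in T and 5.02 in CT, a difference of -2.83 ± 0.96 (SD, n = 11 pairs, p = 0.000977 in a two-sided exact permutation test, the lowest value open to 11 pairs, adjusted 0.0029). Of its 77 tested genes 49 were called lower and 0 higher, against 7.11% and 6.32% of all tested genes. The genes of the list took 0.0564% to 0.317% of the counts in T and 0.425% to 1.17% in CT, without overlap. In the AT libraries of the other cats, on which the list was chosen, they took 2.26% to 5.76%, and in the T libraries 0.0528% to 0.294%, so CT lay between T and AT. The list was chosen without CT libraries, so genes that AT and CT share can be on it. Its level in CT cannot tell such genes from fat cells in the captured areas. The part of fat cells in the lower genes, those of the list included, was not tested.

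The mean of the muscle-high list (329 genes, 222 tested) did not differ beyond the spread over cases. T minus CT was -0.35 ± 0.96 log2 units (SD, n = 11 pairs), with T above CT in 3 cases (two-sided exact permutation test, p = 0.26, adjusted 0.26). Of the 222 tested genes 8 were called higher and 29 lower, against 6.32% and 7.11% of all tested genes. The share called lower was thus larger, and the share called higher smaller, than over all tested genes. The genes of the list took 0.624% to 1.70% of the counts in T and 0.542% to 2.47% in CT, against 46.9% to 66.2% in the SM libraries of the other cats. In case 6 the list was at 3.67 in CT and 1.47 in T, while in case 22 it was at 2.04 in CT and 3.46 in T, so single cases moved in opposite directions.

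Without cases 13, 14 and 17 the differences were 3.85 for the tumor-high, -3.31 for the adipose-high (adjusted p = 0.0117 for both, exact permutation test over 8 pairs) and -0.16 for the muscle-high list (adjusted p = 0.68). Without case 14 alone they were 3.49, -2.96 and -0.27.

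**Figure D4:**
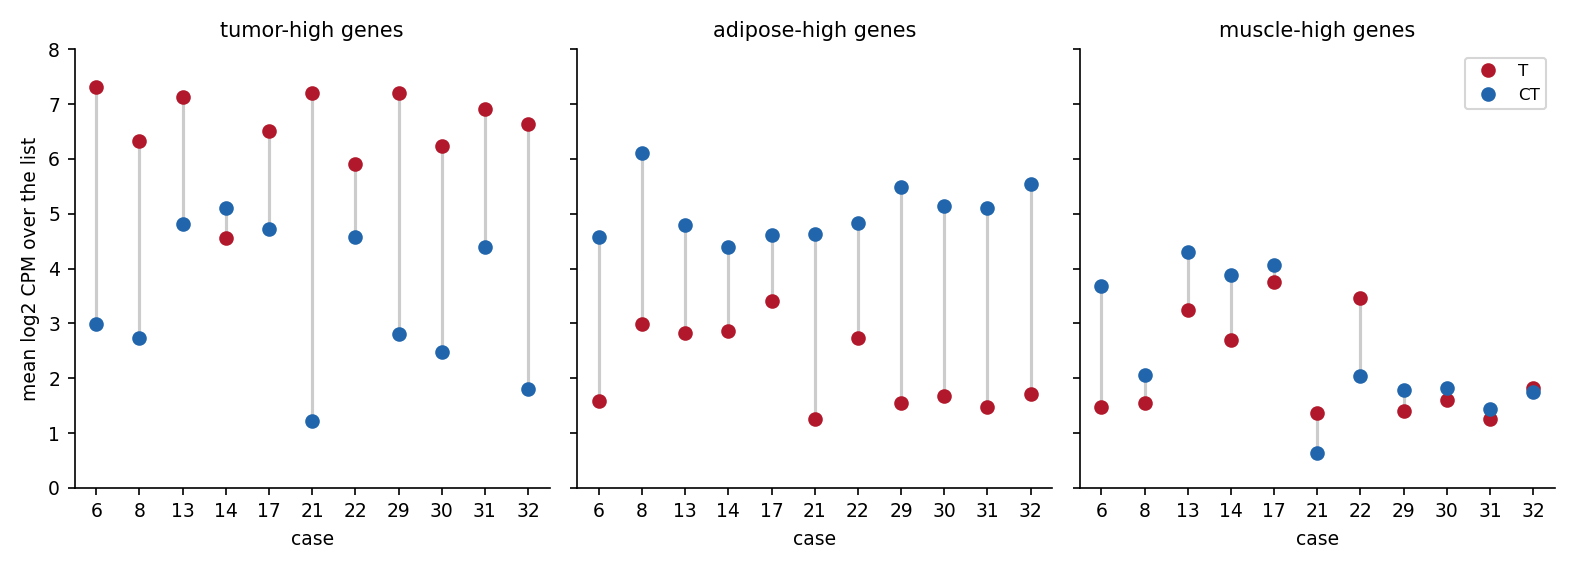
Mean log2 CPM over the tumor-high, adipose-high and muscle-high lists in T (red) and CT (blue) of each case, joined by a line. T is above CT in 10 of 11 cases for tumor-high genes, with case 14 reversed (4.56 in T, 5.10 in CT), and below CT in all 11 for adipose-high genes.

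The called genes were then read in the 19 cats without CT, where T was compared with AT and with SM. These 2 comparisons share their 19 T libraries and hold 10 AT and 12 SM libraries. Each AT and SM library comes from a cat among the 19, and the fits did not use this partial pairing. T vs AT called 7.74% of 14255 genes higher and 8.75% lower, and T vs SM called 21.8% higher and 16.2% lower (edgeR quasi-likelihood test, same limits, no block).

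Of the 812 genes higher in T than in CT, 481 (59.2%) were called higher and 2 lower in T vs AT, with a median log2(FC) of 1.33, against 0.13 over all genes. In T vs SM, 523 (64.4%) were called higher and 48 lower, with a median of 1.84 against 0.23. Of the 914 genes lower in T than in CT, 891 could be tested. In T vs AT, 492 (55.2%) of them were called lower and 3 higher, with a median of -1.46. In T vs SM, 318 (35.7%) were called lower and 58 higher, with a median of -0.57. Irrespective of the call, 96.8% of the higher and 90.7% of the lower genes were on the same side against AT, as were 682 of 812 and 573 of 891 against SM. The share of all genes on each side was not taken, and their medians of 0.13 and 0.23 lie above 0. These counts are therefore a description. Genes counted above with the same direction in all 11 cases were read separately. Of the 265 higher genes of this kind, 133 (50.2%) were called higher in T vs AT and 150 (56.6%) in T vs SM, and of 309 tested lower genes, 199 (64.4%) and 131 (42.4%) were called lower.

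The named genes were read in these cats too. ENSFCAG00000009217 was higher in T than in AT (log2(FC) 3.42, edgeR adjusted p = 2.6e-07) and than in SM (4.66, adjusted p = 2.2e-11), and it ranged from 2106 to 33256 CPM in the 19 T, from 415 to 3393 in AT and from 109 to 1478 in SM. ENSFCAG00000030585 had a log2(FC) of 1.97 against AT (adjusted p = 0.00019) and 1.43 against SM (adjusted p = 0.00091), less than the 3.67 against CT. ENSFCAG00000030571 was lower in T than in AT (log2(FC) -4.18, edgeR adjusted p = 1.8e-06), while against SM it had -0.71 (adjusted p = 0.34) and medians of 7.89 CPM in T and 14.1 in SM. ENSFCAG00000023366 was lower than in AT (-2.40, adjusted p = 0.00025) and than in SM (-1.15, adjusted p = 0.041).

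The 19 tumors were also set against the mean of the 11 CT libraries. In a tumor of these cats, a median of 96.3% of the 812 higher genes lay above the CT mean (74.8% to 99.4%), and a median of 96.3% of the 914 lower genes lay below it (74.8% to 98.9%), while 51.6% to 64.1% of all tested genes lay above it. In the 11 cases on which the genes were called, the medians were 98.6% and 94.7%. The CT libraries are the same in both, so the CT side is not independent. The median difference from the CT mean had a median of 1.73 over the higher (0.96 to 2.14) and of -2.18 over the lower genes in the 19 tumors. Among the 19, the tumors of cases 11, 12 and 26 had the smallest values on both sides, and of the 11 cases, 14 and 22 had the smallest over the higher genes.

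**Figure D5:**
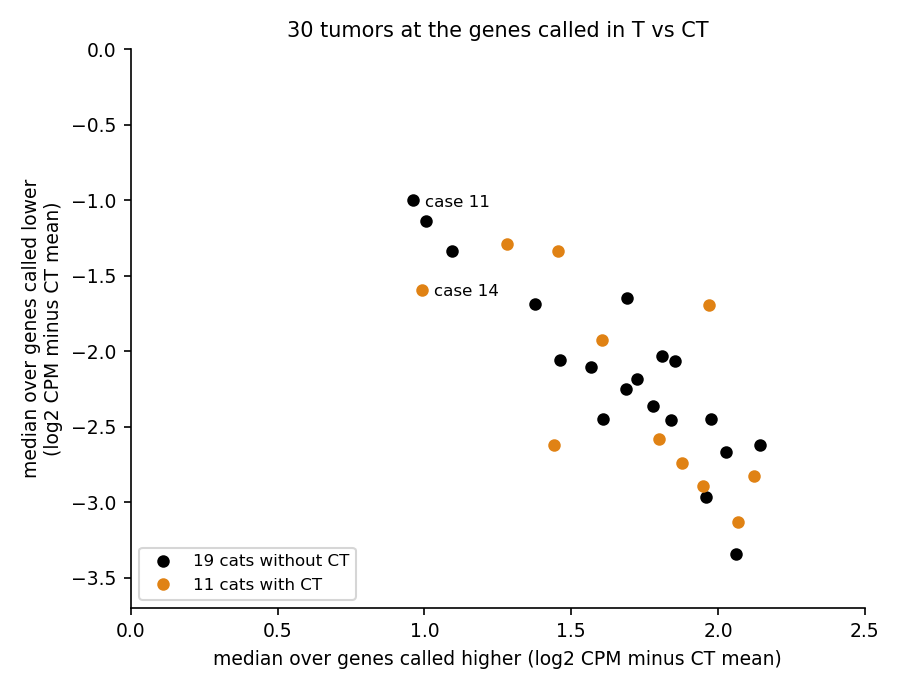
Each of 30 tumors by its median difference from the mean of the 11 CT libraries in log2 CPM, over the 812 genes called higher (horizontal) and the 914 called lower (vertical). The 19 tumors that took no part in the calls (black, medians 1.73 and -2.18) overlap with the 11 that did (orange, medians 1.80 and -2.58).

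As a share of all counts, the 812 higher genes took 8.84% to 21.4% in T (median 15.9%) and 4.40% to 6.15% in CT (median 5.15%), and the 914 lower genes 2.07% to 6.63% in T (median 2.85%) and 9.79% to 16.5% in CT. These shares describe the size of the called sets, which were chosen on the same libraries. CT varied little in the share of higher genes, and T of case 14, at 8.84%, was the lowest tumor.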

How the data were processed

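RNA of LCM-isolated FFPE tissue was sequenced after library preparation with a SMARTer stranded total RNA kit of the Pico type, with ribosomal depletion. Each library has 1 file, in which the authors deposited raw counts for every Ensembl gene. Their methods name Trimmomatic for trimming and Kallisto with Felis_catus_9.0 for quantification, whereas the submitters' processing notes list STAR and featureCounts, so the tool behind the counts was not settled here.

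Tissue and case were taken from the sample titles and labels. 1 library, titled adipose tissue but labelled tumor, was left out. T and CT of a case come from the same cat, which pairs them. The deviations of T and CT of the same case from their tissue means correlated across genes with a median of 0.096 (0.005 to 0.575, over 0.1 in 5 of 11 cases), against -0.019 between different cases.

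edgeR 4.0.16 with limma 3.58.1 was run in R 4.3.3 on the counts of the 22 libraries, using filterByExpr by tissue, TMM and the quasi-likelihood test with case as a block, and genes were called at an adjusted p under 0.05 (Benjamini-Hochberg over all tested genes) and a log2(FC) beyond 1. Within-case differences are log2 CPM with a prior count of 2, and values per library were tested by exact permutation of signs. The fits were tested on simulated data. Figures were drawn in Python 3.11.15 with matplotlib 3.10.9.

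The named genes are the 2 with the largest fold change in each direction among called genes that reach 10 counts in all 22 libraries and the same direction in all cases, the rule for identifiers without symbols. The comparison, its rules and the lists were chosen with earlier results of these data known. 26 gene lists given as symbols could not be used, and the proteomic data were not used here. Alternatives were DESeq2 1.42.0, the likelihood ratio test, no block, no TMM, other filters, all tissues in 1 fit, thinning, other limits for lists and detection, and cases left out. Depth limits the precision at low counts, and the separate cats give the spread behind each p-value.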

Additional observations from a re-analysis of the deposited data

How the results depend on the processing

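The 4 named genes kept their direction and their side of the threshold under every alternative run, as did the tests of the 3 lists. For the named genes this is no test, since they were chosen on the same libraries for large differences with the same direction in all 11 cases. Of 193 alternative values, 178 stayed within the limits set for a change, 14 moved and 1 changed sign. The limits were wide. The likelihood ratio test called 1200 genes higher and 1247 lower, with 3462 at an adjusted p under 0.05, and these values count among the 178. The log2(FC) of the 4 named genes under each alternative are also among the 193, so the tally does not measure how stable the counts of genes are. Without the replicate block, that is without pairing by cat, 848 genes were higher and 652 lower (2130 at an adjusted p under 0.05), against 812, 914 and 2434 with it. Of these, 664 higher and 577 lower genes were called both ways. The genes called higher numbered 415 without TMM and 251 without the 3 shallowest CT libraries (cases 13, 17 and 21, chosen after seeing the data), and 463 (without case 13) to 817 (without case 22) with 1 case left out. DESeq2 called 1628 genes lower and gave 4045 with an adjusted p under 0.05, of which there were 1123 without the 3 shallowest CT libraries. Genes above CT in all cases numbered 144 without TMM, 280 with a filter of 10 counts in 50% of a tissue's libraries, 251 after thinning and 754 without cases 13, 14 and 17. With 1 case left out they numbered 309 (without case 13) to 637 (without case 22), and without the 3 shallowest CT libraries 414. The counts of 309 and 414 lie below the 442 of all 11 cases, although fewer cases had to share a direction. Genes counted as below CT in all cases numbered 325 with a prior count of 0.5 and 802 without cases 13, 14 and 17. They numbered 663 without the 3 shallowest, and 341 to 627 with 1 case left out, where 627 is without case 14. The last counts rise in part by construction, since fewer cases have to share a direction. The difference in genes detected at equal depth reversed to -579 (p = 0.28, exact permutation test) when 3 counts were required, and neither value passed the test. The cause of the other changes was not tested. The depth of the CT libraries, 847003 counts in the shallowest, sets the precision of values at low counts.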
